A study of Mus musculus with 12 samples.

Results

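Klf2, Klf4, Klf6, Klf9, Klf10 and Nos3 were followed across 4 sources of mouse brain endothelial cells. Klf2, Klf4, Klf6, Klf9 and Klf10 are zinc finger transcription factors of the Krüppel-like family, and Nos3 is the endothelial nitric oxide synthase. The members were found by their gene symbol after RefSeq row names were matched to symbols, and where a gene had more than 1 probe set the one with the highest mean was kept. All 6 of 6 were found, each with 1 probe set, among the 15204 genes of the table. The study measured total RNA on 12 microarrays, 3 for each source, and values are on the authors' log2 scale, where a difference of 1 is 2-fold.

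The non-cultured group was brain microvascular endothelium purified with magnetic beads by PECAM1, a junctional surface protein of endothelium. The single-cultured group was brain microvascular endothelium grown for 5 days on transwell filters. In the co-cultured group the same cells stood over glial cultures 3 weeks old, with no contact between the layers. The b.End5 group is 1 endothelioma cell line, obtained from transformed mouse brain endothelium, so its 3 arrays come from a single transformed line. The labels name the PECAM1 step for the non-cultured cells alone, so culture and bead sorting cannot be told apart. They give neither the strain nor the age of the mice, and they do not say that replicates were separate preparations, so p-values measure the spread between these arrays only.

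Fluid shear stress on the vessel wall keeps Klf2 and Klf4 switched on in endothelium, through the kinases MEK5 and ERK5 and the MEF2 factors. KLF2 and KLF4 in turn raise Nos3 and the anticoagulant thrombomodulin and hold down adhesion molecules, endothelin and clotting genes. Klf4, Klf6, Klf9 and Klf10 are also known as early response genes of other signals, Klf9 of glucocorticoid and thyroid hormone and Klf10 of TGF-beta.

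The promoters of Klf2 and Klf4 are printed because these genes had the widest range over the 4 sources. RefSeq start sites on GRCm38.p6 gave a promoter for Klf2, Klf4, Klf6 and Klf9, and the 250 bases before the start were searched on both strands. The Klf2 window is chr8:72318812-72319061 on the plus strand and the Klf4 window is chr4:55532476-55532725 on the minus strand, each printed 5′ to 3′ as the gene reads. Capitals mark GC boxes (GGGCGG, or CCGCCC on the other strand), a MEF2 match in Klf2 and an E-box (CACGTG) in Klf4.
Klf2: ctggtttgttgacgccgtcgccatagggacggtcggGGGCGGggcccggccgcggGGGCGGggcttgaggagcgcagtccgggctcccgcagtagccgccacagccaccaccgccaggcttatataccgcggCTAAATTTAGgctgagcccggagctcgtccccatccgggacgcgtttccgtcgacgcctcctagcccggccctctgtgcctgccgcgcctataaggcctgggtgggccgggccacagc
Klf4: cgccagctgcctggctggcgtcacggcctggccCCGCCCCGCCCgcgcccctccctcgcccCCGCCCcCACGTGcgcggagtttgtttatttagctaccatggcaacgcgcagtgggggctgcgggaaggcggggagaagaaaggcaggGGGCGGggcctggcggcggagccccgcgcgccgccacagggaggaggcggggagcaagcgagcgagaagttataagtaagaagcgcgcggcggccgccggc
The Klf2 window held 2 GC boxes and 1 MEF2 match, the latter from 118 to 109 bases before the start, and 71.2% of its bases were G or C. The Klf4 window held 4 GC boxes, 2 of them overlapping by 1 base, and 1 E-box at 182 bases before the start, with 74.0% G or C. Of 32841 mouse promoter windows of the same length, 32.7% held a GC box, 2.92% the MEF2 motif and 6.02% the E-box. Klf6 had 1 GC box and 1 E-box, and Klf9 had 1 AP-1 match (TGANTCA), a motif found in 6.75% of windows. The KLF motifs CCACACCC and CCCCACCC, the cyclic AMP element TGACGTCA, the CArG box, the NF-kB motif and the glucocorticoid response element had no match in these 4 windows. A match is a string of letters and not a measured site.

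In both cultures 5 of the 6 genes were lower than in non-cultured cells by more than 2-fold, Klf2 and Klf4 by far the most. A gene was called at a limma adjusted p under 0.05 and a difference of at least 2-fold. Of all genes, 5.82% were called lower in single-cultured and 6.2% in co-cultured cells. In b.End5 cells 4 members were lower than in non-cultured cells, where 9.06% of all genes were. No member was higher than in non-cultured cells in any of the 3 groups, beside 7.18%, 9.1% and 9.1% of all genes. Klf6 was not called in either culture. The arrays did not overlap with the non-cultured ones for 6 members in single culture, 6 in co-culture and 5 in b.End5 cells, beside 45.3%, 51.1% and 49.2% of all genes, so separation alone says little here.

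**Figure D1:**
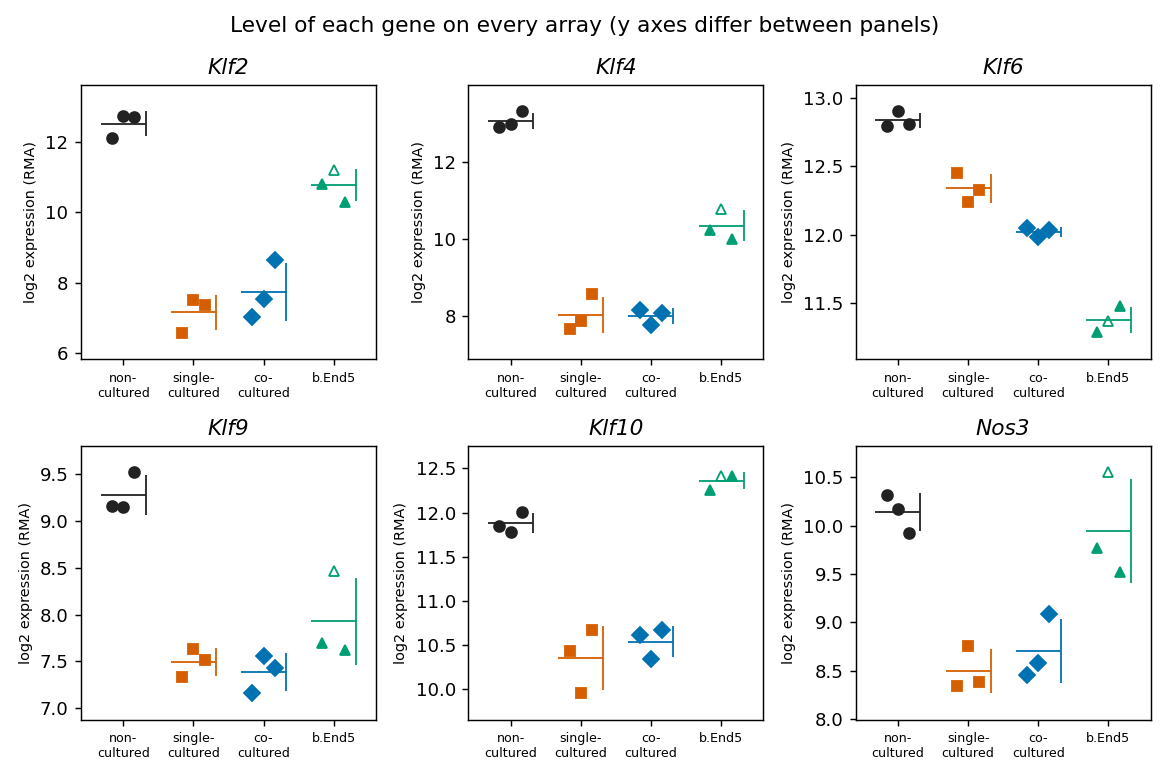
Log2 expression of Klf2, Klf4, Klf6, Klf9, Klf10 and Nos3 on each of the 12 arrays, by source, with the mean of 3 arrays as a horizontal line and the SD as a vertical line; the open triangle is b.End5 replicate 2. Klf2 and Klf4 sit between 12.10 and 13.30 in non-cultured cells and between 6.58 and 8.63 in both cultures, while Klf6 stays between 11.29 and 12.90 in every source.

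Klf2, which in mice is needed for vessel wall stability and in endothelium is the best known factor induced by laminar flow, read 12.10, 12.72 and 12.70 on the 3 non-cultured arrays. It read 6.58, 7.52 and 7.36 on the single-cultured arrays and 7.03, 7.54 and 8.63 on the co-cultured arrays. On the b.End5 arrays it read 10.81, 11.20 and 10.30. Every cultured array lay below every b.End5 array, and every b.End5 array lay below every non-cultured one. The single-cultured cells were 40.9-fold lower than non-cultured cells (95% confidence interval 22.5 to 74.4, adjusted p = 1.35e-06), the fall of rank 19 among 15204 genes. The co-cultured cells were 27.4-fold lower (adjusted p = 2.83e-06). The b.End5 cells were 3.33-fold lower (adjusted p = 0.00419), and they exceeded single-cultured cells by 12.3-fold (adjusted p = 2.97e-05) and co-cultured cells by 8.21-fold (adjusted p = 1.27e-04). On the log2 scale the b.End5 mean stood 67.6% of the way from the single-cultured to the non-cultured mean.

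Klf4, a barrier and anti-inflammatory factor of endothelium and one of the reprogramming factors, read 12.89, 12.97 and 13.30 on the non-cultured arrays. It read 7.68, 7.88 and 8.57 in single culture and 8.15, 7.76 and 8.08 in co-culture. The b.End5 arrays read 10.24, 10.79 and 10.00. As for Klf2, the cultures, b.End5 and the non-cultured cells formed 3 levels without overlap, while the 2 cultures overlapped each other. The fall was 32.3-fold in single culture (95% confidence interval 22.1 to 47.1, adjusted p = 6.56e-08) and 33.2-fold in co-culture (adjusted p = 4.40e-08). In b.End5 cells Klf4 was 6.55-fold lower than in non-cultured cells (adjusted p = 4.28e-06). It was 4.93-fold higher in b.End5 than in single-cultured cells (adjusted p = 2.94e-05) and 5.08-fold higher than in co-cultured cells (adjusted p = 2.77e-05). Its b.End5 mean stood 45.9% of the way from the single-cultured to the non-cultured mean.

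Nos3, whose product makes nitric oxide from arginine and which KLF2 raises, read 10.32, 10.17 and 9.92 on the non-cultured arrays. It read 8.34, 8.75 and 8.38 in single culture and 8.46, 8.57 and 9.08 in co-culture. The b.End5 arrays read 9.77, 10.55 and 9.52, and their range took in all 3 non-cultured values. Nos3 was 3.13-fold lower in single-cultured (95% confidence interval 2.12 to 4.61, adjusted p = 4.72e-04) and 2.70-fold lower in co-cultured than in non-cultured cells (adjusted p = 0.00103). Between b.End5 and non-cultured cells the log2 difference was -0.19, with an interval from -0.75 to 0.37 (adjusted p = 0.610). Nos3 was 2.74-fold higher in b.End5 than in single-cultured cells (adjusted p = 0.00108) and 2.37-fold higher than in co-cultured cells (adjusted p = 0.00341). Without b.End5 replicate 2 the last difference was 0.94 on the log2 scale (adjusted p = 0.00479), under the 2-fold limit, and the difference from non-cultured cells was -0.49 (adjusted p = 0.0835).

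Klf6, a factor induced in injured endothelium, was the most even of the members. It read 12.79, 12.90 and 12.81 on the non-cultured arrays and 12.45, 12.24 and 12.32 on the single-cultured arrays. It read 12.05, 11.98 and 12.03 in co-culture and 11.29, 11.37 and 11.48 in b.End5 cells. The 4 groups did not overlap, in the order non-cultured, single-cultured, co-cultured and b.End5. The differences from non-cultured cells were -0.50 in single culture (SE 0.10, adjusted p = 0.00297) and -0.81 in co-culture (adjusted p = 7.45e-05), both under 2-fold. In b.End5 cells Klf6 was 2.74-fold lower than in non-cultured cells (adjusted p = 3.69e-07). Against single-cultured cells the b.End5 difference was -0.96 (adjusted p = 2.35e-05), and it reached -1.01 without single-cultured replicate 2 or without b.End5 replicate 3.

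Klf9, a GC-box binding factor that glucocorticoid and thyroid hormone induce, read 9.16, 9.15 and 9.52 on the non-cultured arrays. It read 7.33, 7.63 and 7.52 in single culture and 7.16, 7.56 and 7.43 in co-culture. The b.End5 arrays read 7.70, 8.47 and 7.62, and 7.62 lay just under the highest single-cultured value. All 9 other arrays lay below the non-cultured ones. The fall was 3.44-fold in single culture (95% confidence interval 2.49 to 4.76, adjusted p = 7.11e-05), 3.71-fold in co-culture (adjusted p = 3.70e-05) and 2.54-fold in b.End5 cells (adjusted p = 3.63e-04). Between b.End5 and the cultures Klf9 did not pass the test, with differences of 0.44 from single culture (adjusted p = 0.149) and 0.55 from co-culture (adjusted p = 0.0740).

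Klf10, an early gene of TGF-beta signalling, was the member with its highest level in b.End5 cells. It read 11.85, 11.78 and 12.00 on the non-cultured arrays, 10.43, 9.95 and 10.66 in single culture and 10.61, 10.34 and 10.66 in co-culture. The b.End5 arrays read 12.25, 12.42 and 12.42, above all others. Klf10 was 2.89-fold lower in single-cultured (95% confidence interval 2.23 to 3.74, adjusted p = 3.90e-05) and 2.54-fold lower in co-cultured than in non-cultured cells (adjusted p = 8.90e-05). It was 4.04-fold higher in b.End5 than in single-cultured cells (adjusted p = 4.00e-06) and 3.55-fold higher than in co-cultured cells (adjusted p = 9.70e-06). The difference between b.End5 and non-cultured cells was 0.48 (adjusted p = 0.0427), under 2-fold, and the adjusted p was 0.0859 without b.End5 replicate 2.

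Counted over the members, 4 of 6 (Klf2, Klf4, Klf10 and Nos3) were called higher in b.End5 than in single-cultured cells, beside 6.25% of all genes. The same 4 were called higher in b.End5 than in co-cultured cells, beside 5.1% of all genes, and 3 were without b.End5 replicate 2. The b.End5 arrays did not overlap with the single-cultured ones for 5 members and with the co-cultured ones for 6, beside 41.5% and 44.4% of all genes. No member was called lower in b.End5 than in either culture, beside 7.82% and 7.96% of all genes. The comparisons with non-cultured cells share those 3 arrays, so their directions are not separate evidence.

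**Figure D2:**
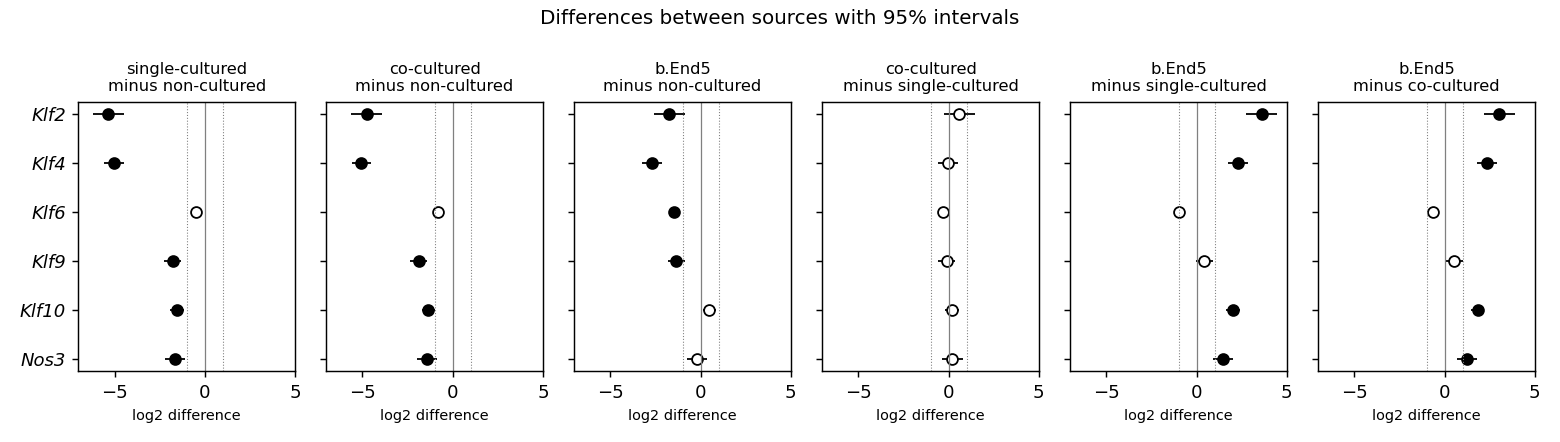
Log2 difference of each of the 6 members in the comparisons of sources, with 95% confidence intervals from limma and the 2-fold limits as dotted lines; filled points passed both limits and open points did not. Klf2 lies at -5.35 and -4.77 and Klf4 at -5.01 and -5.06 in the cultures against non-cultured cells, and all 6 intervals for co-cultured minus single-cultured cells lie between -0.59 and 1.44.

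Co-culture with glia was compared with single culture to see whether glial cells alter these genes. None of the 6 members passed the test, beside 0.901% of all genes called higher and 0.289% called lower by limma. Klf2 differed by 0.58 with a 95% confidence interval from -0.28 to 1.44, so a difference of up to 1.44 in favour of co-culture lies within it. Klf4 differed by -0.04 (-0.59 to 0.50), Nos3 by 0.21 (-0.35 to 0.77), Klf9 by -0.11 (-0.58 to 0.36) and Klf10 by 0.19 (-0.19 to 0.56). For Klf6 the arrays did not overlap, which was so for 19.9% of all genes, and the difference was -0.32 (-0.54 to -0.10, adjusted p = 0.162). On co-cultured replicate 3 Klf2 read 8.63, the highest cultured value, and without that array the difference was 0.13. It was 0.30 without single-cultured replicate 1 and 0.93 without co-cultured replicate 1, and none of these was called. The labels do not say that arrays of the same number share a preparation, and the intervals above take no account of pairs. Within the same-numbered pairs, co-cultured minus single-cultured, Klf2 differed by 0.45, 0.02 and 1.28. Klf6 differed by -0.40, -0.26 and -0.29 and Klf9 by -0.17, -0.07 and -0.08. These 3 members thus had 1 direction in all 3 pairs, as did 39.4% of all genes. With the pairs as a block in a fit of the cultures alone the interval was -0.04 to 1.20 for Klf2 (adjusted p = 0.334), -0.60 to -0.03 for Klf6 (adjusted p = 0.264) and -0.39 to 0.17 for Klf9 (adjusted p = 0.687).

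The arrays had medians between 7.21 and 7.40 over all genes, and 3 arrays a group set the precision. On each array 79.4% to 82.9% of genes lay above a no-target level, which is the level that 95% of the 27 bacterial control probe sets stay under, and every member did on every array. The second b.End5 array stood apart, with 1106 and 1193 genes over 1 log2 unit from the other b.End5 arrays, which differed by that much at 42 genes. It gave the highest b.End5 value for 4 of the 6 members. Without it the differences from non-cultured cells were -1.95 for Klf2, -2.93 for Klf4, -1.45 for Klf6 and -1.61 for Klf9, and each stayed past both limits.

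Markers of other cell types differed between the groups, and in bulk samples fewer cells of a type and less RNA per cell cannot be told apart. The log2 of the summed level of 12 of 13 endothelial markers was 16.43 to 16.54 in non-cultured, 15.88 to 16.19 in single-cultured, 15.73 to 15.95 in co-cultured and 15.92 to 15.94 in b.End5 cells. In b.End5 cells the transporter Slco1a4 was at or under the no-target level, and all other measured endothelial markers were above it. For 11 of 12 microglia and macrophage markers the summed level was 10.64 to 11.22 in non-cultured, 13.41 to 14.34 in single-cultured, 13.35 to 14.45 in co-cultured and 7.88 to 8.22 in b.End5 cells. In single culture 6 of these 11 were called higher than in non-cultured cells and 0 lower, and Itgam was at or under the no-target level in non-cultured cells, as were P2ry12, Itgam and Ptprc in b.End5 cells. For 12 pericyte and smooth muscle markers the sums were 12.39 to 12.94, 13.18 to 13.73, 13.64 to 14.23 and 9.05 to 10.11 in the same order of groups. A sum follows its brightest genes, and in single culture 3 of the 12 were called higher, such as Acta2 (2.94) and Tagln (3.66), and 4 lower, such as Rgs5 (-5.79) and Higd1b (-2.95, with 2 of 3 arrays above the no-target level), with a median difference of 0.19. In co-culture 4 were higher and 3 lower, and in b.End5 cells 0 higher and 8 lower. Cnn1 was at or under the no-target level in non-cultured cells and Rgs5 in b.End5 cells. For 7 fibroblast markers the sums were 8.34 to 9.13, 9.15 to 9.87, 10.81 to 13.14 and 7.41 to 8.46, with Lum and Dpt at or under the no-target level in all groups. The list's median difference from non-cultured cells was -0.22 in single culture, with 1 called higher, and 0.12 in co-culture, with Col1a1 (4.17) and Col1a2 (3.93) called higher. Both were also called higher in co-culture than in single culture, by 2.50 (adjusted p = 0.0265) and 2.86 (adjusted p = 0.00928). For 7 of 8 astrocyte markers the sums were 9.73 to 9.86, 7.82 to 7.86, 7.78 to 8.08 and 8.15 to 9.17, with Gjb6 at or under the no-target level in all groups. For 3 of 5 blood cell markers they were 9.27 to 9.79, 6.01 to 6.41, 5.82 to 6.40 and 6.21 to 6.87, with Cd3e at or under it in all groups. For 5 neuron markers the sums were 7.27 to 8.01, 6.98 to 7.67, 7.60 to 9.29 and 9.37 to 12.99, with Nefl higher by 5.68 in b.End5 cells (adjusted p = 1.40e-04), Tubb3 higher by 4.13 in co-culture and Syt1 at or under the no-target level in all groups. For 5 oligodendrocyte markers they were 8.75 to 9.68, 8.67 to 9.46, 8.70 to 9.61 and 8.65 to 8.93, with Mag at or under it in all groups and Mbp at or under it and at least 16.2-fold lower in b.End5 cells. Beside these counts, 7.18%, 9.1% and 9.1% of all genes were called higher than in non-cultured cells in single-cultured, co-cultured and b.End5 cells. The shares called lower were 5.82%, 6.2% and 9.06%. The part of these cell types in the members' levels was not tested.

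Of the rest of the family, the Krüppel-like and Sp factors that share its zinc fingers, 17 of 21 genes were measured. In single-cultured against non-cultured cells 3 were lower and 1 higher, with a median difference of -0.41 beside -0.00 over all genes. The counts in co-culture were the same, with a median of -0.46 beside -0.04. In b.End5 cells 3 were lower and 0 higher, with a median of -0.19 beside 0.08. The shares of all genes called lower in these 3 groups were 5.82%, 6.2% and 9.06%, and called higher 7.18%, 9.1% and 9.1%. Klf12, a repressor, changed by -2.68 on the log2 scale in single culture (adjusted p = 2.38e-07), by -2.87 in co-culture and by -2.15 in b.End5 cells. Klf11, the close relative of Klf10 and likewise an early TGF-beta gene, changed by -2.13 and -2.39 in the cultures (adjusted p = 1.96e-06 and 5.96e-07). In b.End5 cells Klf11 differed by -0.81 from non-cultured cells, under 2-fold, and was 1.31 above single-cultured cells. Sp4 changed by -1.03 and -1.10 in the cultures, close to the limit, and Klf13 fell by 1.16 in b.End5 cells. Sp5, a target of Wnt signalling, was the family gene that rose in the cultures, by 1.50 and 1.14, and it changed by -2.53 in b.End5 cells. The rise of Sp5 in co-culture was 0.98 without non-cultured replicate 1 and 0.99 after median centring, so that call was lost.

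The other Klf genes had smaller differences. In single culture against non-cultured cells the log2 difference was -0.88 for Klf13, -0.78 for Klf16, -0.53 for Klf7, -0.39 for Klf1, -0.39 for Klf15, -0.38 for Klf3 and -0.34 for Klf5. None of these passed both limits in either culture. Klf17 and Sp8 were at or under the no-target level in all groups. In co-cultured against single-cultured cells 0 of the 17 were called, and the widest difference was -0.35 for Sp5 (adjusted p = 0.562).

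**Figure D3:**
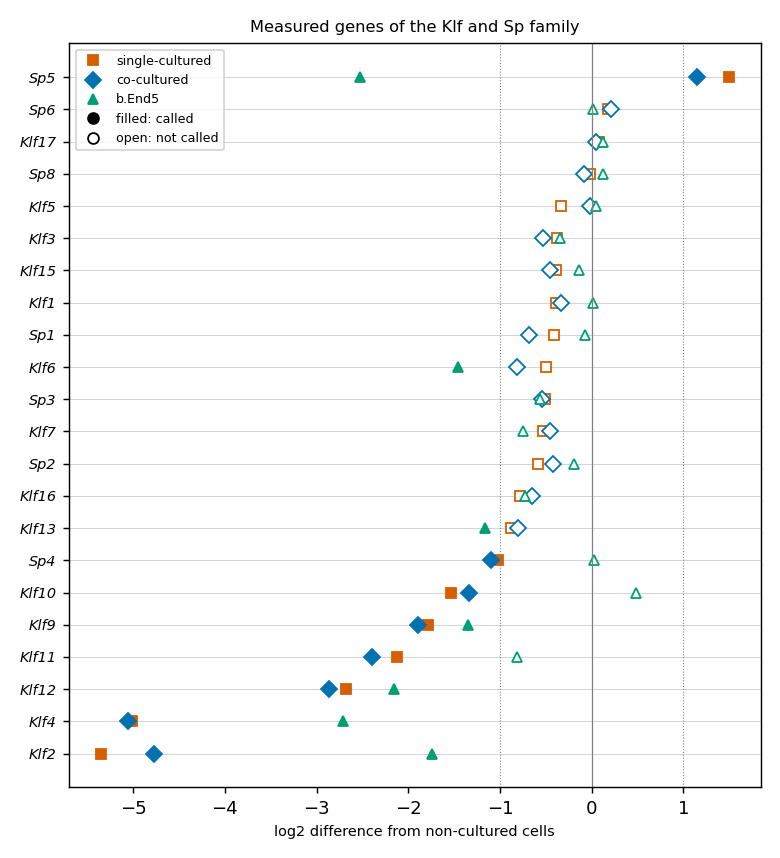
Mean log2 difference from non-cultured cells for the measured Klf and Sp genes and the 5 Klf members in single-cultured (squares), co-cultured (diamonds) and b.End5 cells (triangles); filled points were called, and dotted lines mark 2-fold. Klf2 and Klf4 lie lowest in both cultures, followed by Klf12 at -2.68 and -2.87 and Klf11 at -2.13 and -2.39, and Sp5 lies at 1.50 and 1.14.

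Genes that KLF2 or KLF4 are known to raise in endothelium were measured for 17 of 17. In single culture 6 rose and 3 fell against non-cultured cells, with a median difference of 0.01 beside -0.00 over all genes. In co-culture 6 rose and 3 fell (median 0.32), and in b.End5 cells 9 rose and 2 fell (median 1.19). The shares of all genes that rose in these 3 groups were 7.18%, 9.1% and 9.1%, and 5.82%, 6.2% and 9.06% fell. The fallers in single culture numbered 1 without single-cultured replicate 1 or 3, and those in co-culture 5 without co-cultured replicate 1 or after median centring. The risers included Cyp1a1, a xenobiotic oxidase, which lay above the no-target level on 1 of the 3 non-cultured arrays. With the other arrays set to that level, Cyp1a1 was at least 16.1-fold higher in single culture (adjusted p = 1.18e-05 on the measured values). Hmox1, a heme-degrading enzyme, rose by 2.62 (adjusted p = 5.97e-06). Both have inducers other than flow, the aryl hydrocarbon receptor for Cyp1a1 and NRF2 for Hmox1, and what raised them was not tested. Adamts4, a matrix protease, rose by 2.45 in single culture (adjusted p = 3.22e-08), by 3.64 in co-culture (adjusted p = 1.27e-09) and by 5.80 in b.End5 cells. Nqo1, an NRF2-driven reductase, rose by 5.15 in b.End5 cells. Cyp1b1 was at or under the no-target level in non-cultured cells. It was at least 3.66-fold, 3.80-fold and 2.22-fold higher in single-cultured, co-cultured and b.End5 cells. Ccn3, a matrix signalling protein, changed by -1.32 in single culture (-0.98 without single-cultured replicate 1, and not called) and by -2.35 in co-culture. Ptgds, a prostaglandin D synthase, changed by -2.20 in co-culture and by -2.19 in b.End5 cells. Its change of -1.33 in single culture (adjusted p = 0.0449) was lost in 9 of the fits without 1 array, among them that without non-cultured replicate 3 (-0.69, adjusted p = 0.106).

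Thbd and Tek are textbook targets and were chosen after their values were seen. Thbd, thrombomodulin, differed by -0.65 in single culture (adjusted p = 0.0167), by -0.91 in co-culture (adjusted p = 0.00192) and by 0.40 in b.End5 cells (adjusted p = 0.104), all under 2-fold. Tek, the angiopoietin receptor, changed by -1.01 in single culture (adjusted p = 2.28e-05) and by -1.31 in co-culture (adjusted p = 2.27e-06). The change of Tek in single culture lay close to the 2-fold limit, and its call was lost without single-cultured replicate 3. In b.End5 cells Tek differed by -0.10 (adjusted p = 0.511).

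Between co-cultured and single-cultured cells 1 gene of this list was higher and 4 were lower, beside 0.901% and 0.289% of all genes. The lower count was 1 without single-cultured replicate 3. Adamts4 was 1.19 higher in co-culture (adjusted p = 7.11e-04). Cyp1a1 fell by 2.56 (adjusted p = 0.0105, and 0.0538 without single-cultured replicate 3), and Gja4, an arterial connexin, fell by 2.02 (adjusted p = 0.00269). Against non-cultured cells Gja4 rose by 2.34 in single culture (adjusted p = 3.43e-05) and differed by 0.32 in co-culture. In b.End5 against non-cultured cells Gja4 fell by 2.83.

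Genes that KLF2 or KLF4 are known to lower were measured for 14 of 14. In each culture 8 rose and 0 fell against non-cultured cells, with medians of 2.67 in single culture and 1.82 in co-culture. The shares of all genes that rose were 7.18% and 9.1%, and 5.82% and 6.2% fell. Thbs1, the angiogenesis inhibitor thrombospondin 1, rose by 6.54 in single culture (adjusted p = 2.80e-09) and by 6.41 in co-culture. Ccl2, a monocyte chemokine, rose by 5.10 in single culture (adjusted p = 2.80e-07), by 4.81 in co-culture and by 4.94 in b.End5 cells. Sele, the adhesion molecule E-selectin, had a mean of 6.09 in non-cultured, 10.54 in single-cultured, 8.11 in co-cultured and 8.39 in b.End5 cells. It thus lay above its non-cultured mean in all other sources, by 2.29 in b.End5 cells. Sele was 2.43 lower in co-cultured than in single-cultured cells (adjusted p = 0.00304). In the same cultures the summed microglia and macrophage markers were higher by the ranges given above.

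In b.End5 cells Klf2 and Klf4 lay between their levels in the cultures and in non-cultured cells. There 2 genes of the same list rose and 6 fell against non-cultured cells, beside 9.1% and 9.06% of all genes. The median was -0.84. Edn1, the constrictor endothelin 1, fell by 6.80 (adjusted p = 4.92e-09), and Ccn1, a matrix protein that YAP induces, fell by 6.47 (adjusted p = 2.15e-10). Neither was called in the cultures. Edn1 differed from non-cultured cells by 0.81 in single culture (adjusted p = 0.0529) and by 0.19 in co-culture (adjusted p = 0.661). Ccn1 differed by -0.52 and -0.64. Against single-cultured cells 11 of the 14 were lower in b.End5 cells and 0 higher, with a median of -4.67 beside 0.08 over all genes. Against co-cultured cells 9 were lower and 0 higher, with a median of -4.25 beside 0.10. The shares of all genes called lower in these 2 comparisons were 7.82% and 7.96%, and called higher 6.25% and 5.1%.

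**Figure D4:**
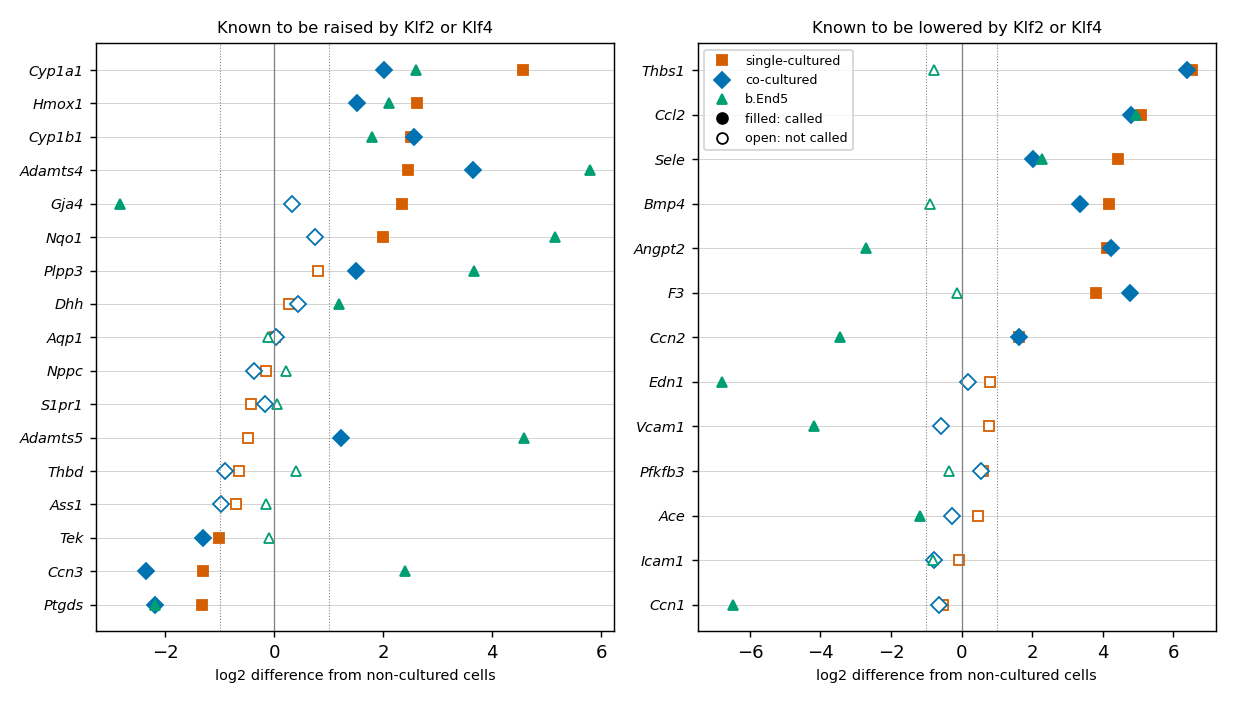
Log2 difference from non-cultured cells of the genes that KLF2 or KLF4 are known to raise (17 genes) or to lower (13 of the 14 genes) in endothelium, in single-cultured (squares), co-cultured (diamonds) and b.End5 cells (triangles); filled points were called, and dotted lines mark 2-fold. Points are measured values, also at the no-target level. Of the genes known to be lowered Thbs1 leads the cultures at 6.54 and 6.41, and in b.End5 cells Edn1 lies at -6.80 and Ccn1 at -6.47.

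Kinases and factors upstream of Klf2 and Klf4 were measured for 15 of 16. In each culture 2 fell and 0 rose, and in b.End5 cells 1 fell and 0 rose, with medians of -0.18, -0.40 and 0.03. The shares of all genes that fell were 5.82%, 6.2% and 9.06%, and 7.18%, 9.1% and 9.1% rose. Nothing is thus read from these small counts about the list. The fallers in culture were Hdac5, a deacetylase that holds MEF2 inactive, with changes of -1.65 and -1.34 (adjusted p = 8.67e-05 and 3.26e-04), and Sirt1, a deacetylase that acts on the synthase, with -1.46 and -1.59. In b.End5 cells Sirt1 fell by 1.59 (adjusted p = 8.33e-05). None was called between the cultures, with Mef2a widest at -0.48 (adjusted p = 0.515). The core of the pathway, chosen after its values were seen, differed by less than 2-fold. Mapk7, which encodes ERK5, differed by 0.75, 0.58 and 0.24 from non-cultured cells in single-cultured, co-cultured and b.End5 cells, and Map2k5, which encodes MEK5, by -0.18, -0.33 and 0.03.

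Of 19 shear-sensing proteins 18 were measured. In single culture 1 rose and 1 fell, in co-culture 3 rose and 1 fell, and in b.End5 cells 3 rose and 2 fell. Of all genes 7.18%, 9.1% and 9.1% rose and 5.82%, 6.2% and 9.06% fell, so nothing is read from these small counts about the list. Its median differences were 0.27, 0.02 and 0.15. Itga5, the fibronectin receptor subunit, rose by 1.78 and 1.66 in the cultures (adjusted p = 1.69e-05 and 2.41e-05). Trpv4, a calcium channel, changed by -1.09 in single culture, where 2 of 3 arrays lay above the no-target level (-0.99 without single-cultured replicate 2, and not called) and by -1.21 in co-culture. In b.End5 cells the surface proteoglycan Sdc1 rose by 3.22 and the receptor Plxnd1 by 2.08, while the kinase Src fell by 1.83. The potassium channel Kcnj2 rose by 1.60 in co-culture and fell by 1.59 in b.End5 cells, and both calls were lost in several fits without 1 array, such as 1.28 without non-cultured replicate 3 and -0.93 without b.End5 replicate 2. None was called between the cultures, and Sdc1, widest at 0.71 (adjusted p = 0.205), reached 1.05 without co-cultured replicate 3.

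Around Nos3, 26 of 27 genes of the nitric oxide pathway were measured. In single culture 4 fell and 0 rose, in co-culture 4 fell and 2 rose, and in b.End5 cells 7 fell and 1 rose. Of all genes 5.82%, 6.2% and 9.06% fell and 7.18%, 9.1% and 9.1% rose, and the list's median differences were -0.07, -0.25 and -0.39. Slc7a1, the main carrier of arginine, the substrate of the synthase, changed by -3.07 in single culture (adjusted p = 3.38e-06), by -3.08 in co-culture and by -3.89 in b.End5 cells. Nostrin, an adaptor that takes the synthase off the membrane, changed by -2.62 in single culture (adjusted p = 4.45e-04), by -1.43 in co-culture and by -4.45 in b.End5 cells. The change of Nostrin in co-culture was -0.89 without co-cultured replicate 1, and its adjusted p was 0.0519 without non-cultured replicate 3. Gch1, which makes the tetrahydrobiopterin that the synthase needs, changed by -1.65 in single culture (adjusted p = 2.62e-04) and by -1.28 in co-culture. In b.End5 cells Gch1 differed by -0.15 from non-cultured cells (adjusted p = 0.665) and was 1.50 above single-cultured cells.

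Gchfr, the feedback regulator of that enzyme, rose by 4.68 in b.End5 cells (adjusted p = 1.35e-08), where Prkg1, the kinase downstream of cyclic GMP, was at or under the no-target level and at least 15.3-fold lower than in non-cultured cells. In co-culture Gchfr rose by 1.01, and it was not called after median or housekeeping centring or without non-cultured replicate 2 or co-cultured replicate 2 or 3. The risers of the list in co-culture numbered 0 after either centring or without co-cultured replicate 2. Of the other synthases, Nos2 differed by -0.63, -0.83 and -0.77 from non-cultured cells, under 2-fold, and Nos1 was at or under the no-target level in both cultures. None of the 26 was called between co-cultured and single-cultured cells, with Nostrin widest at 1.19 (adjusted p = 0.194), which without co-cultured replicate 1 was 1.73 (adjusted p = 0.0130).

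**Figure D5:**
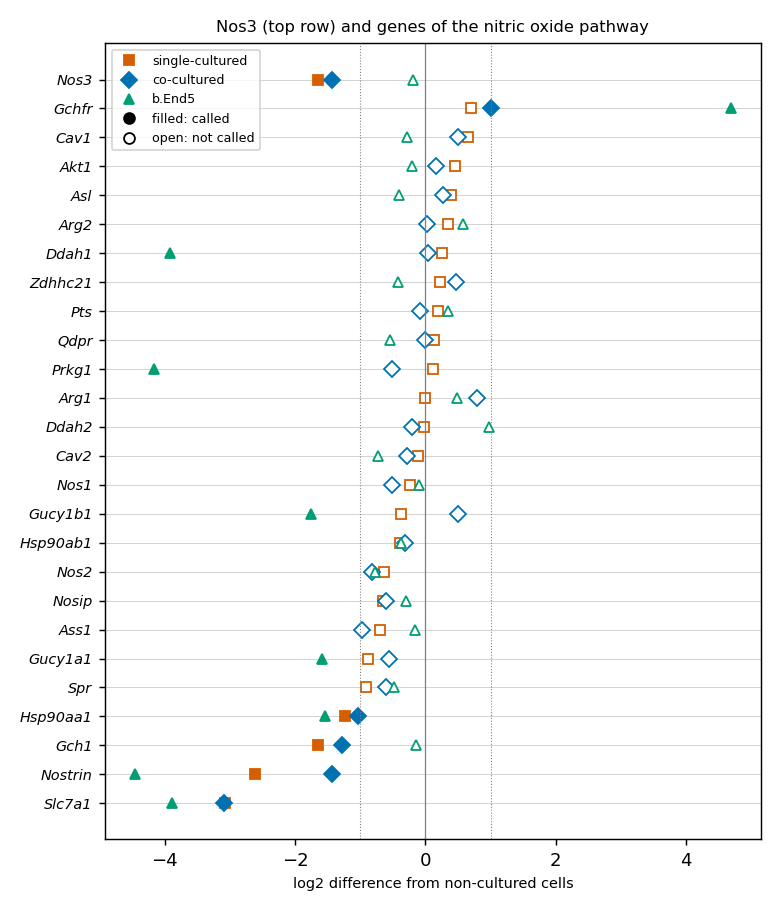
Log2 difference from non-cultured cells of Nos3 and 25 of the 26 measured genes of the nitric oxide pathway in single-cultured (squares), co-cultured (diamonds) and b.End5 cells (triangles); filled points were called, and dotted lines mark 2-fold. Slc7a1 lies at -3.07, -3.08 and -3.89, Gch1 at -1.65, -1.28 and -0.15 and Nos3 at -1.65, -1.43 and -0.19.

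The pattern of each member over the 12 arrays was compared with that of every gene by the root mean square difference of log2 values after each gene was centred on its own mean. For Klf2 the most alike were Arl4d (0.45), Gem (0.49) and Clic5 (0.55), and for Klf4 they were Gem (0.38), Arl4d (0.52) and Klf2 itself (0.63). For Nos3 they were Gch1 (0.17), Entpd1 (0.17) and C2cd2l (0.20). For Klf6 they were Rhob (0.11), Osbpl6 (0.13) and Xkr8 (0.14), for Klf9 Taf9b (0.17), Gpr146 (0.21) and Adgra1 (0.21), and for Klf10 Thrsp (0.21), Rhebl1 (0.26) and Ccdc157 (0.26). Without b.End5 replicate 2, 3 of 3 remained for Klf2, 2 each for Klf4, Klf6 and Nos3, 1 for Klf10 and 0 for Klf9. Among the members themselves Klf10 and Nos3 differed by 0.45, Klf9 and Nos3 by 0.50, Klf2 and Klf4 by 0.63 and Klf2 and Klf6 by 2.21. Some of the like genes had arrays at or under the no-target level, where a value has no order, so their distances and ranks are uncertain. Arl4d lay above that level on 0 of 3 single-cultured and 2 of 3 co-cultured arrays. Osbpl6 lay above it on 2 of 3 co-cultured and 0 of 3 b.End5 arrays. Adgra1 lay above it on 0 of 6 cultured arrays and 1 of 3 b.End5 arrays. These values describe 12 arrays in 4 groups and carry no test.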

How the data were processed

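The authors deposited 1 table of log2 values made with RMA, per the submitters' processing notes, which corrects background, quantile-normalises arrays and summarises probes. The sources used here name neither its version nor the probe-set definition. RNA was treated with DNase and amplified as cDNA before labelling, per the labels' protocols. All 12 columns were mapped to samples by their labels.

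Of 21625 probe sets, 64 were controls. RefSeq (GRCm38.p6) gave 1 symbol to 16537 of the other 21561 and none to 5024. For 987 genes with several probe sets the one with the highest mean was kept, which left 15204 genes, with no filter on low values. Where all 3 arrays of a group lay at or under the no-target level (4.01 to 4.46), and for Cyp1a1 and Fosb where some did, the fold is a bound with those arrays set to that level (for these 2 genes chosen after seeing the data).

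Differences came from limma 3.58.1 in R 4.3.3 (lmFit, eBayes) with 4 group means over 12 arrays and 8 residual degrees of freedom. Benjamini-Hochberg adjustment ran over all genes, and adjusted p under 0.05 with 2-fold was called. The code was tested on simulated data. Python 3.11.15 with pandas 2.3.3 made the tables and matplotlib 3.10.9 the figures.

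The members and lists were chosen with earlier results of these data known. Named were all members, every measured Klf gene, the 3 genes most like each member, and from each list up to 2 called risers and 2 called fallers of greatest size per comparison, with non-overlapping arrays, or the widest where none was called. Named under this rule, 2 list genes are not reported here and not drawn, though counts include them. Sp4, Thbd, Tek, Mapk7, Map2k5, Nos1 and Nos2 were named after their values were seen. Same-numbered single-cultured and co-cultured arrays correlated at 0.227, 0.135 and 0.232 after group means were removed. All lay above 0.1, so these 2 groups were taken as paired, and no other 2 groups had 3 such pairs. Alternatives were arrays left out in turn, other scalings, a filter on dim genes, no minimum difference, 2-group fits and a replicate block.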

Additional observations from a re-analysis of the deposited data

How the results depend on the processing

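The 36 differences of the 6 members were recomputed under 22 alternatives each, which gave 792 values. Of these, 778 kept direction and side of the threshold, 2 lost the call, 7 gained it and 5 changed sign. Much of this agreement was fixed in advance, so the count does not measure robustness. Leaving out an array of a group not compared cannot change a difference, nor can a block or a 2-group fit, which alter the adjusted p alone. Averaging probe sets changes no member's values, as each has 1. The calls against non-cultured cells were lost under none of the 22 alternatives. The sign changes were all of differences that were not called. With 1 array left out in turn, Nos3 in b.End5 minus non-cultured cells ranged from -0.49 to 0.022. In co-cultured minus single-cultured cells Klf10 ranged from -0.011 to 0.35, Klf4 from -0.23 to 0.22 and Klf9 from -0.20 to 0.0026. The 7 gains were of Klf6 in 4 comparisons and of Klf10 in b.End5 minus non-cultured cells, from dropping the 2-fold minimum or leaving out 1 array. Nos3 in b.End5 minus co-cultured cells lost its call without b.End5 replicate 2 (0.94). With 1 array left out, the genes called over all pathway lists, without the cell type markers, in co-cultured minus single-cultured cells numbered 3 to 8, beside 6 with all arrays. The causes were not tested.

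With a replicate block over all 12 arrays 5, 5 and 4 members were called against non-cultured cells in single-cultured, co-cultured and b.End5 cells, 0 between the cultures, and 4 in b.End5 cells against each culture, the same counts as without it. In a fit of the 2 cultures alone with the block, 0 members were called. The block in a fit of b.End5 and co-cultured cells alone left Nos3 at 1.24 with an adjusted p of 0.0584.

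Median centring moved the median of all genes in co-cultured minus non-cultured cells from -0.04 to -0.19. Signal over background did not limit the members, which all lay above the no-target level.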

Other observations

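Genes of other signals that Klf4, Klf6, Klf9 and Klf10 are known to answer moved between the groups too. The 28 immediate early genes are the first wave of transcription after a stimulus or cell handling. In single-cultured against non-cultured cells 22 of them fell and 1 rose (median -2.57). In co-culture 20 fell and 1 rose (median -2.39), and in b.End5 cells 23 fell and 1 rose (median -3.32). The shares of all genes that fell were 5.82%, 6.2% and 9.06%, and 7.18%, 9.1% and 9.1% rose. Fosb, an AP-1 subunit, lay above the no-target level on 2 of 3 single-cultured, 1 of 3 co-cultured and 0 of 3 b.End5 arrays. With the other arrays set to that level, it was at least 256-fold, 293-fold and 304-fold lower than in non-cultured cells, bounds that give the 3 groups no order. Hspa1b, an inducible heat shock protein, changed by -6.84 and -6.81 in the cultures, and Fos fell by 6.44 in b.End5 cells. Myc, a transcription factor of cell growth, rose by 1.74, 1.97 and 1.31. In b.End5 against single-cultured cells 0 immediate early genes were higher and 6 were lower, beside 6.25% and 7.82% of all genes. The part of cell handling, or of the signals that follow, in the members' levels was not tested.

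Of 11 glucocorticoid receptor targets, 7 fell and 0 rose in single culture, and 7 fell and 1 rose in co-culture. In b.End5 cells 8 fell and 1 rose. Of all genes 5.82%, 6.2% and 9.06% fell and 7.18%, 9.1% and 9.1% rose in single-cultured, co-cultured and b.End5 cells. The list's median differences were -1.38, -1.52 and -2.22, and Per1 is counted here and among the clock genes. Tsc22d3, the leucine zipper GILZ, changed by -3.91 and -3.78 in the cultures (adjusted p = 1.57e-07 and 1.59e-07), and Cdkn1c, a cell cycle inhibitor, changed by -4.23 and -4.33. In b.End5 cells the kinase Pdk4 changed by -5.77 and the metallothionein Mt2 by -5.28, while the chaperone Fkbp5 rose by 2.41. The rise of Fkbp5 in co-culture (1.76) had an adjusted p of 0.0647 without non-cultured replicate 2. Of 14 measured TGF-beta and BMP response genes, 3 rose and 1 fell in each culture, and 0 rose and 9 fell in b.End5 cells. The median differences of these response genes were -0.24, -0.16 and -1.38. Tgfbi, a matrix protein, rose by 3.58 and 4.38 in the cultures, and Bhlhe40, a transcriptional repressor, changed by -1.69 and -1.35. In b.End5 cells Smad6 was at least 11.3-fold lower and Ccn2 fell by 3.46. Of 14 clock genes, of which Klf9 and Klf10 are known outputs, 4, 6 and 5 fell and 0 rose in single-cultured, co-cultured and b.End5 cells, with changes of -2.76, -3.15 and -3.34 for Nr1d1, a clock repressor. Per1 changed by -2.53 and -2.23 in the cultures and Hlf by -2.98 in b.End5 cells. The median differences of the clock genes were -0.41, -0.63 and -0.78. None of these 4 lists had a gene called between co-cultured and single-cultured cells, where the widest were Nr4a1 at 1.11 (adjusted p = 0.368), Angptl4 at 1.13 (0.0806), Tgfbi at 0.80 (0.254) and Nr1d2 at -0.68 (0.161).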
